A study of Mus musculus with 2 samples.

Results

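Genes of collagens and of the basement membrane were examined in bulk RNA-seq of primary mouse pituitary cells. Members were chosen by a rule on names, with earlier results of these data known. They are protein-coding genes whose symbol is Col, a number, a and a number, or Lama, Lamb or Lamc with a number. The rule also takes in Nid1, Nid2, Hspg2 and Agrn. This gave 59 of the 47069 genes counted, of which 44 encode collagen chains and 11 laminin chains. Whole pituitaries of randomly cycling C57BL/6 females, 10 to 12 weeks old, were digested with collagenase, an enzyme that cuts collagen protein, and dispersed with pancreatine. Per the labels, each sample pooled 500000 to 700000 cells from 5 glands and was placed at once in either RNA-Best, a buffer that stabilizes RNA inside intact single cells, or RNAlater, a common salt-based stabilizer taken as the reference. Each stabilizer had 1 library, so the differences have no replicate check and stabilizers were not compared by a test.

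Basement membranes are thin sheets of matrix that underlie epithelia and surround blood vessels, and they separate the cell cords of the pituitary from its capillaries. They are built on 2 networks, one of collagen IV and one of laminin trimers, which nidogens and the proteoglycans perlecan and agrin link together. Interstitial collagens such as collagen I and III form fibrils, and are known as products of fibroblasts and other mesenchymal cells. In endocrine glands, pericytes, endothelial cells and fibroblasts are among the sources of this matrix.

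A collagen chain is marked by repeat regions with a glycine in 1 of every 3 residues. In these regions its coding sequence carries a GGN codon (GGT, GGC, GGA or GGG) at the same spacing. The coding strand is given for 4 members, to let the 2 chains of collagen I, which differed most in their ratio between libraries, be compared with those of collagen IV. Each stretch covers the first 30 codons of the longest unbroken repeat in the longest coding transcript of GENCODE M21 (GRCm38), 5′ to 3′, with the glycine codons in capitals.
Col1a1: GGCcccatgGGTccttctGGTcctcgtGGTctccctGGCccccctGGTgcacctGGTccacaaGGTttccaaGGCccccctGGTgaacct
Col1a2: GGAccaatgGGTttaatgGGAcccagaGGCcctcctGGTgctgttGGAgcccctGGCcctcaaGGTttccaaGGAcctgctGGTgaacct
Col4a1: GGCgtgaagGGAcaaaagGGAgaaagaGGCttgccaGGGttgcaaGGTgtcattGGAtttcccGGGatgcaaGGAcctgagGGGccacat
Col4a2: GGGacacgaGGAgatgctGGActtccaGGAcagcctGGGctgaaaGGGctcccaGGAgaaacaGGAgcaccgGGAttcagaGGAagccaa
The repeat ran without a break for 338 triplets in Col1a1 and 339 in Col1a2, but for at most 40 in Col4a1 and 66 in Col4a2, whose glycine repeat is interrupted many times. The coding sequence was 63.0% GC in Col1a1, 59.5% in Col1a2, 60.4% in Col4a1 and 61.5% in Col4a2. In the 15 members that are not collagens the longest run was 2 or 3 triplets. The longest transcript had 5.93 kb for Col1a1 and 5.35 kb for Col1a2.

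Levels are given in CPM, gene counts scaled to a common library total (53915047 counts for the RNA-Best library, 44917492 for RNAlater). Log2 ratios are of RNA-Best to RNAlater with 0.5 CPM added to each level, so a negative value means a lower level in RNA-Best. The intervals are exact 95% intervals of the ratio of counts, computed without the added 0.5 CPM. With 1 library per stabilizer they describe only the error of counting. PCR copies of a molecule are counted as separate reads, so the intervals can be too narrow even for that. A mean of at least 1 CPM was reached by 53 of the 59 members. Both libraries carried the hormone transcripts of the gland, from prolactin (Prl) down to the thyrotropin beta subunit (Tshb), at 52.9 CPM in RNA-Best against 31.6 CPM for RNAlater.

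RNA of collagens and basement membrane proteins took a smaller share of the RNA-Best library. Summed over all 59 members it came to 1481 CPM in RNA-Best against 3024 CPM for RNAlater, a log2 ratio of -1.03 (-1.04 to -1.02). By CPM all 53 members at this level were lower in RNA-Best, although Col17a1 and Col8a2 changed sign under 3 other scalings and Col1a2 under 1. Of all 16504 genes at this level 67% were lower. Of the 53 members, the interval lay wholly below 0 for 51 and included 0 for Col17a1 and Col8a2. The share of all genes with an interval wholly below 0 was not computed. At least 2-fold lower were 31 of the 53, against a background of 4.99% of all genes. No member was at least 2-fold higher, against 0.273% of all genes. The median log2 ratio was -1.09 over the 53 members and -0.18 over all genes, a difference of -0.92. The scaling moved the centre of all genes but not this difference. With TMM factors or DESeq2 size factors the median of all genes was -0.01 and -0.0036, the members differed from it by -0.92 in both, and 21 members were at least 2-fold lower, against 2.65% (TMM) and 2.56% (DESeq2) of all genes. Over all 59 members with no filter on level the median was -1.05, against -0.06 over 29238 genes, and 31 of the 59 were at least 2-fold lower, against 2.91% of those genes.

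**Figure D1:**
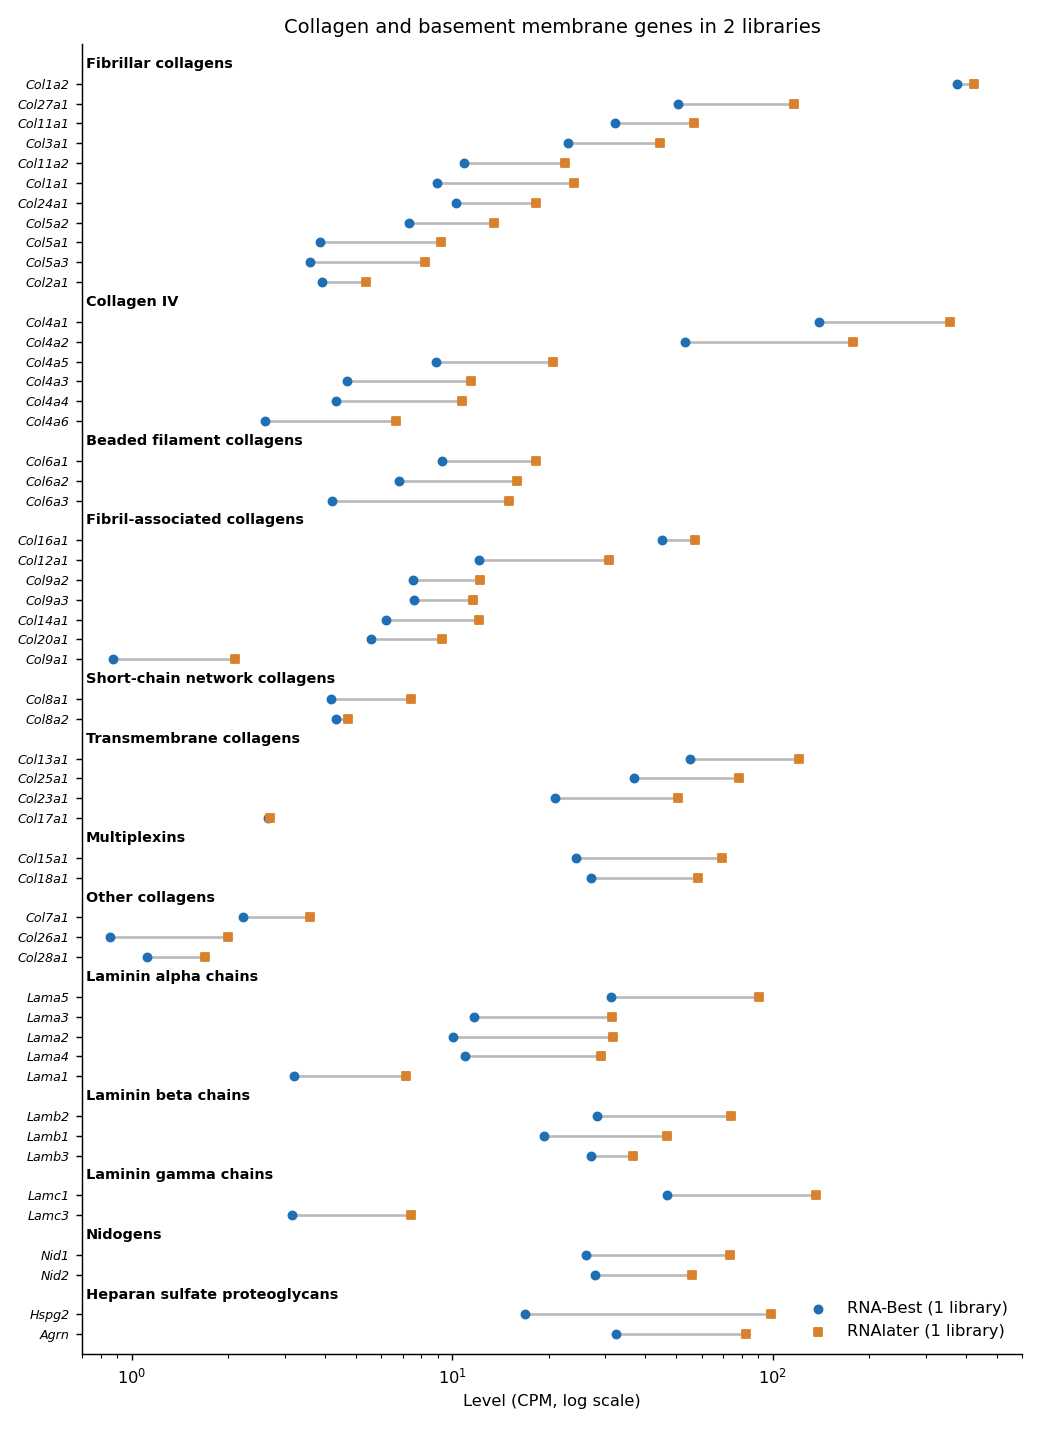
Level of members averaging 1 CPM or more, in CPM on a log axis, by the role of the protein. Circles are the RNA-Best library and squares the RNAlater library, with 1 library each and no error bar. Nearly all circles lie well to the left of their squares, while those of Col1a2, Col16a1, Col8a2 and Col17a1 lie close to them.

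These genes have long transcripts, and long transcripts as a whole were lower in RNA-Best, so each member was set against other protein-coding genes with a longest annotated transcript of similar length. Of the 53 members, 48 had a transcript over 4 kb, and the median was 6.05 kb against 3.47 kb for other protein-coding genes. Between 4 and 6 kb the median log2 ratio was -0.95 for 21 members and -0.40 for 3359 other genes, and 8 of the 21 members were at least 2-fold lower where 5.6% of the other genes were. Between 6 and 10 kb it was -1.16 for 21 members and -0.65 for 1709 others, with 16 of 21 members at least 2-fold lower against 20.4% of the others. Over 10 kb all 6 members were at least 2-fold lower, with a median of -1.46, against 42.1% and -0.90 for 361 others. Of 3 members of 3-4 kb, 1 was at least 2-fold lower (1.93% of the others), and neither of the 2 members of 2-3 kb was (0.809%). All 5 lay below the median of their class. No member was shorter than 2 kb, where 0.139% of other genes of 1-2 kb and 0.19% of those up to 1 kb were at least 2-fold lower.

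Relative to the median of its length class, the median member differed by -0.55, and 48 of 53 members lay below that median (50% for other protein-coding genes by construction). For 45 members the whole interval lay below it, and for 3 it lay above. The intervals leave out the 0.5 CPM that the class median includes, so the 2 are unlike measures for weakly expressed members. The share of other genes with such intervals was not computed, so these counts are not read as a result about the members. A LOWESS trend on length in place of classes gave a median difference of -0.53. The 5 members above their class were Col17a1, Col8a2, Col1a2, Col16a1 and Col7a1. The 33 members averaging 10 CPM or more stood at a median of -0.63 from their class, and the 20 less abundant ones at -0.38. These differences describe 2 libraries and are no test of the stabilizers.

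**Figure D2:**
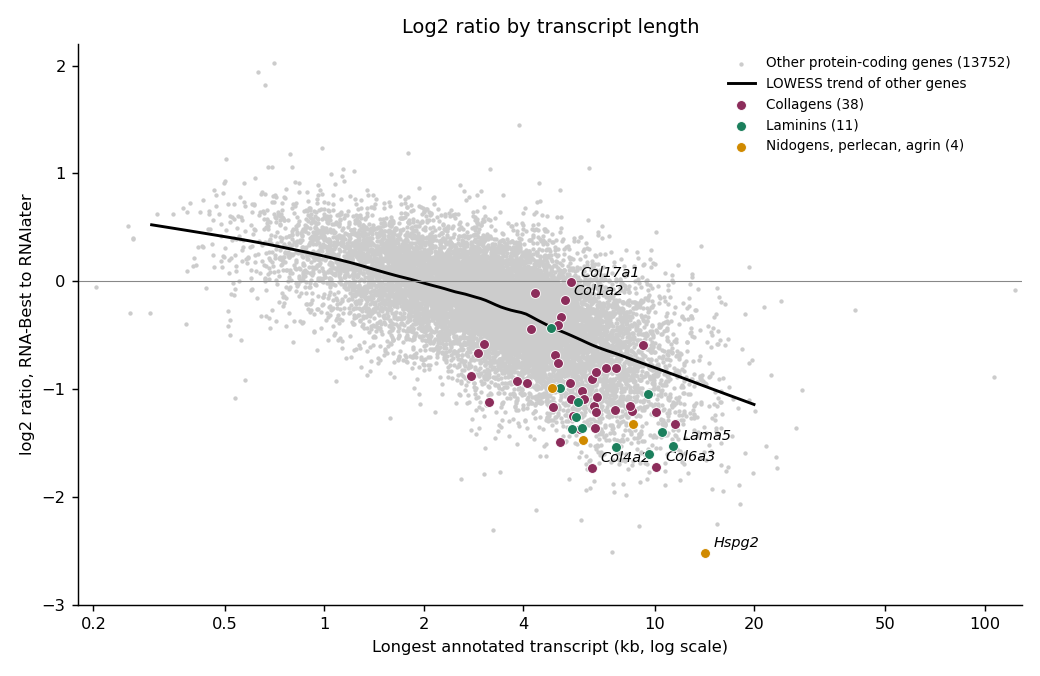
Log2 ratio of RNA-Best to RNAlater against the length of the longest annotated transcript in kb on a log axis, for genes averaging 1 CPM or more. Small grey points are 13752 other protein-coding genes, the line is their LOWESS trend (drawn from 0.3 to 20 kb), and large points are the members by kind. Most members lie below the line at their own length, with Hspg2 lowest at -2.52 and Col17a1 highest at -0.01.

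Members were also richer in GC, with a median transcript GC of 55.6% against 49.7% for other protein-coding genes. Among genes over 4 kb the ratio was lower where GC was higher, from a median of -0.22 in the lowest GC quintile to -0.65 in the highest for other genes of 4-6 kb, and from -0.53 to -1.36 for those over 10 kb. In the 4-6 kb class 13 of the 21 members fell in the highest quintile, above 55.6% GC, as did 8 of the 21 of 6-10 kb. Set against other genes of the same length class and GC quintile, the median member differed by -0.36, and 43 of 53 lay below. The difference was thus smaller than with length alone. For the fibrillar collagens it was close to nil, at -0.05, with 7 of 11 below, whereas for collagen IV it was -0.36 with 6 of 6 below, and for the laminins -0.47 with 10 of 11 below.

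**Figure D3:**
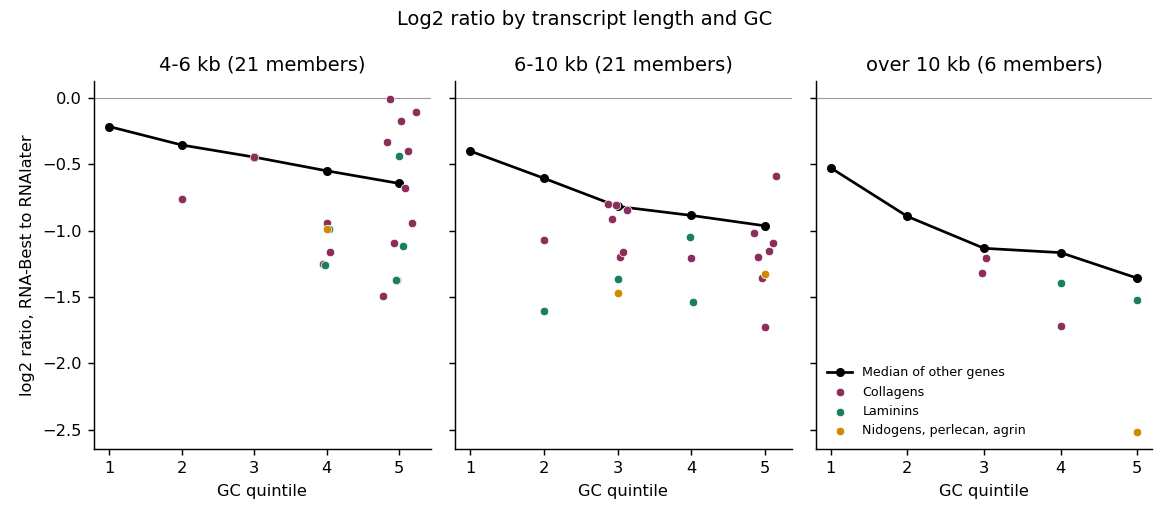
Log2 ratio by quintile of transcript GC (1 lowest, 5 highest) in 3 classes of transcript length. The black line joins the medians of other protein-coding genes and the coloured points are members, spread sideways where they share a quintile. The line falls with GC in each class, and 43 of 53 members over all classes lie below the median of their own length and GC.

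Collagen IV, the scaffold of every basement membrane, was lower in RNA-Best for all 6 chains. Col4a1 (ENSMUSG00000031502.9) stood at 139 CPM in RNA-Best against 356 CPM for RNAlater, a log2 ratio of -1.36 (-1.40 to -1.32). Its partner Col4a2 (ENSMUSG00000031503.13) stood at 53.3 and 178 CPM (log2 ratio -1.73, interval -1.80 to -1.68). The interval of Col4a2 lay wholly below that of Col4a1. Per kb of transcript, Col4a1 exceeded Col4a2 by 2.54-fold (2.43 to 2.65) in RNA-Best and 1.95-fold (1.90 to 2.01) in RNAlater. With the median length of a gene's transcripts in place of the longest, these folds were 3.70 and 2.85.

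The 4 minor chains, which replace the common ones in specialised basement membranes such as that of the kidney, were weakly expressed. Col4a5 had 8.92 CPM in RNA-Best against 20.5 CPM for RNAlater, Col4a3 had 4.69 and 11.4, Col4a4 had 4.34 and 10.7, and Col4a6 had 2.60 and 6.66. Their log2 ratios lay between -1.21 and -1.16, closer together than those of the common pair. Their intervals were wider, such as -1.37 to -1.04 for Col4a5 and -1.66 to -1.06 for Col4a6, so a closer agreement is not shown. Collagen IV genes lie head to head in pairs. Col4a1 (chromosome 8, 11198423-11312826, minus strand, GRCm38) and Col4a2 (11312805-11449287, plus strand) overlap by 22 bases at their starts. The RNAlater count of Col4a1 was not a whole number, while both counts of Col4a2 were, and the cause was not tested. Col4a3 and Col4a4 start 71 bases apart on chromosome 1, and Col4a5 and Col4a6 start 1308 bases apart on chromosome X. The log2 ratios within a pair differed by 0.37 for Col4a1 and Col4a2, by 0.01 for Col4a3 and Col4a4 and by 0.05 for Col4a5 and Col4a6.

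Fibrillar collagens form the load-bearing fibrils of connective tissue, and the log2 ratios of the 11 genes ran from -1.37 to -0.18. Col1a2 (ENSMUSG00000029661.16, chromosome 6, 4504814-4541544), the minor chain of collagen I, stood at 376 CPM in RNA-Best against 425 CPM for RNAlater, a log2 ratio of -0.18 (-0.20 to -0.15). Per kb of longest transcript it was the most abundant member in both libraries. Col1a1 (ENSMUSG00000001506.10, chromosome 11, 94936224-94953042), the major chain, stood at 8.93 and 23.9 CPM (log2 ratio -1.37, interval -1.58 to -1.26). Per kb, Col1a2 exceeded Col1a1 here by 46.7-fold (42.6 to 51.1) in RNA-Best and by 19.7-fold (18.5 to 20.98) in RNAlater. With median transcript lengths the folds were 8.86 and 3.74. The counts of Col1a2 were whole numbers, whereas that of Col1a1 in RNA-Best was 481.5. Col1a2 also exceeded Col3a1, another fibroblast product, by 17.1-fold per kb in RNA-Best and 9.93-fold in RNAlater, or by 5.96-fold and 3.46-fold with median transcript lengths. Without Col1a2 the summed level of the members was 1105 CPM in RNA-Best against 2600 CPM for RNAlater, a log2 ratio of -1.23.

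Among the other fibrillar genes Col3a1 stood at 22.9 CPM in RNA-Best against 44.5 CPM for RNAlater, a log2 ratio of -0.95 (-1.06 to -0.86). Col27a1, a fibrillar chain known from cartilage, stood at 50.4 and 116 CPM (-1.20). Col11a1 had 32.2 and 56.6 CPM (-0.80) and its partner Col11a2 had 10.9 and 22.5 CPM (-1.02). Col24a1 stood at 10.2 and 18.3 CPM (-0.80), and Col5a2, which helps to start collagen I fibrils, at 7.31 and 13.5 CPM (-0.84). Col2a1, the collagen of cartilage, was weakly expressed at 3.93 and 5.37 CPM, a log2 ratio of -0.40 (-0.72 to -0.18) close to the median of its length class (-0.40). Col5a1 and Col5a3 made up the list, at -1.15 and -1.09. Thus 5 of the 11 were at least 2-fold lower, against 4.99% of all genes. Among other genes the share was 5.6% at 4-6 kb and 20.4% at 6-10 kb, the length classes of these 11. Of the 11, 10 lay below the median of their length class and 7 below that of their length and GC class.

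Collagen VI forms beaded filaments around cells from a trimer of 3 different chains. Col6a1 stood at 9.26 CPM in RNA-Best against 18.3 CPM for RNAlater (log2 ratio -0.94), Col6a2 at 6.83 and 15.9 CPM (-1.16) and Col6a3 at 4.23 and 15.1 CPM (-1.72, interval -2.06 to -1.61). Col6a3 has the longest of these transcripts, at 10.1 kb against 4.10 kb for Col6a1. Per kb, Col6a1 exceeded Col6a3 by 5.39-fold (4.60 to 6.34) in RNA-Best and 2.99-fold (2.70 to 3.31) in RNAlater, and the intervals did not overlap. For Col6a1 and Col6a2 the fold was 1.62 (1.42 to 1.86) and 1.38 (1.24 to 1.53), with intervals that overlapped. With median transcript lengths the folds were 3.74 and 2.07 over Col6a3, and 2.51 and 2.13 over Col6a2. The other 3 beaded filament genes, Col6a4, Col6a5 and Col6a6, did not reach 1 CPM in either library.

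**Figure D4:**
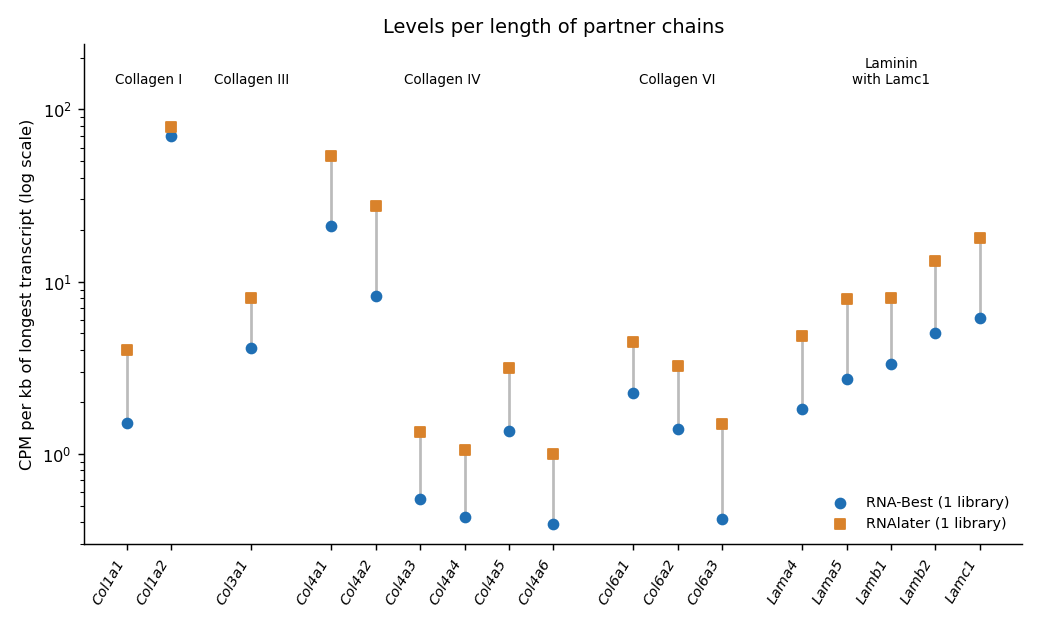
Levels per kb of the longest annotated transcript, on a log axis, for chains of collagens I, III, IV and VI and of laminins with Lamc1. Circles are the RNA-Best library and squares the RNAlater library, 1 each. Col1a2 stands far above Col1a1 in both libraries, while Col4a1 stands above Col4a2 by less.

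Fibril-associated collagens sit on the surface of fibrils. Col16a1 stood at 45.2 CPM in RNA-Best against 57.0 CPM for RNAlater, a log2 ratio of -0.33 (-0.42 to -0.25), and was 0.07 above its length class. Col12a1, with a transcript of 11.5 kb, stood at 12.1 and 30.9 CPM (log2 ratio -1.32, interval -1.49 to -1.22). The other 5 with at least 1 CPM (Col9a1, Col9a2, Col9a3, Col14a1 and Col20a1) lay between -0.92 and -0.58, and none was 2-fold lower. Col1a2 and Col16a1 were the members above 10 CPM nearest to equal levels in both libraries.

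Transmembrane collagens are anchored in the cell surface. Col13a1, found at cell-matrix contacts and the neuromuscular junction, stood at 55.1 CPM in RNA-Best against 120 CPM for RNAlater, a log2 ratio of -1.12 (-1.19 to -1.06). Its longest transcript has 3.16 kb, and it differed from its length class by -0.89. Col25a1 had 36.9 and 78.2 CPM (-1.07), and Col23a1 had 20.9 and 50.5 CPM (-1.25). Col17a1, a component of hemidesmosomes, was weakly expressed at 2.67 and 2.69 CPM (log2 ratio -0.01, interval -0.37 to 0.35). Both multiplexins, basement membrane collagens whose ends are cleaved to release endostatin-like fragments, were lower: Col15a1 stood at 24.3 and 69.4 CPM (-1.49, interval -1.61 to -1.42) and Col18a1 at 27.0 and 58.2 CPM (-1.09). The short-chain network collagens Col8a1 and Col8a2 had log2 ratios of -0.76 and -0.11, the latter with an interval of -0.40 to 0.15. Col7a1, the anchoring fibril of skin, stood at -0.59, Col26a1 at -0.88 and Col28a1 at -0.44, all under 4 CPM in both libraries.

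Laminins are trimers of an alpha, a beta and a gamma chain. All 11 genes were lower in RNA-Best, 9 of them at least 2-fold, against 67% and 4.99% of all genes. Each also lay below the median of its length class, by a median of -0.71. The gamma chain Lamc1, part of most laminins, stood at 46.7 CPM in RNA-Best against 136 CPM for RNAlater, a log2 ratio of -1.54 (-1.61 to -1.48). Lamc3 was weakly expressed, at 3.15 and 7.41 CPM (-1.12).

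The alpha chains carry the sites that bind cell-surface receptors. Lama5 stood at 31.2 CPM in RNA-Best against 90.6 CPM for RNAlater (log2 ratio -1.52), Lama2 at 10.1 and 31.7 CPM (-1.61), Lama3 at 11.7 and 31.6 CPM (-1.40) and Lama4, an alpha chain of blood vessels, at 10.98 and 29.1 CPM (-1.36). Lama1, which is typical of the embryo, had 3.21 and 7.17 CPM (-1.05). All 5 were at least 2-fold lower, as were 20.4% of other genes of 6-10 kb and 42.1% of those over 10 kb. Set against other genes of the same length class and GC quintile, their median difference was -0.23, with 5 of 5 below. Of the beta chains, Lamb1 stood at 19.3 and 46.7 CPM (-1.26), Lamb2 at 28.3 and 74.0 CPM (-1.37) and Lamb3 at 27.0 and 36.7 CPM (log2 ratio -0.44, interval -0.55 to -0.34). The interval of Lamb3 lay above those of the 2 other beta chains, and its ratio was within 0.04 of the median of its length class.

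Within a library, Lamc1 exceeded Lamb1 per kb by 1.84-fold (1.71 to 1.98) in RNA-Best and 2.22-fold (2.11 to 2.33) in RNAlater, and Lama4 by 3.37-fold and 3.72-fold. With median transcript lengths the folds were 6.50 and 7.83 over Lamb1, and 11.9 and 13.2 over Lama4. For Lamb1 the intervals of the 2 libraries did not overlap.

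Nidogens bridge the laminin and collagen IV networks. Nid1 stood at 26.1 CPM in RNA-Best against 73.3 CPM for RNAlater, a log2 ratio of -1.47 (-1.58 to -1.40), and Nid2 at 27.9 and 55.8 CPM (-0.99, interval -1.09 to -0.91). The Nid1 level per kb was 0.699 times that of Lamc1 in RNA-Best (0.654 to 0.746) and 0.672 times in RNAlater (0.644 to 0.701), intervals that overlapped. With median transcript lengths these values were 0.136 and 0.130. Of the exon bases of Nid2, 8.45% are shared with Rtraf on the other strand, the largest such overlap among the members. Of the heparan sulfate proteoglycans, Agrn, which clusters receptors at the neuromuscular junction, stood at 32.5 and 82.3 CPM (log2 ratio -1.33, interval -1.42 to -1.26). Hspg2, the gene of perlecan, had the lowest ratio of all members, -2.52, in the class of transcripts over 10 kb, where the median of other genes was -0.90. It differed by -1.62 from that class and by -1.16 from genes over 10 kb in its GC quintile.

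Among other genes over 10 kb averaging 10 CPM or more, the highest log2 ratios were those of Ebpl (0.45), BC004004 (0.33) and Wdr12 (0.16). The lowest were those of Plec (-2.25), Ahnak (-2.06) and Lrp1 (-1.93), so Hspg2 lay below every one of them. Length here is that of the longest annotated transcript, and the transcript expressed can be shorter.

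The 6 members under 1 CPM in both libraries were Col6a4, Col6a5, Col6a6, Col10a1, Col19a1 and Col22a1. Their counts ranged from 4 to 31.2 in RNA-Best and from 2 to 32 in RNAlater, and Col6a4 and Col10a1 had more counts in RNA-Best. In CPM, 3 counts were 0.0556 (RNA-Best) and 0.0668 (RNAlater). At this depth no difference for these genes is read.

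Genes that make, process and bind the matrix were examined as 6 lists. The background for each list is all genes averaging 1 CPM or more, of which 67% were lower and 4.99% at least 2-fold lower. Genes that fold and modify collagen in the endoplasmic reticulum were nearly equal in both libraries. Summed over 18 genes they came to 2196 CPM in RNA-Best against 2307 CPM for RNAlater, with 3 higher and 15 lower, none by 2-fold, a median log2 ratio of -0.18 and a median difference from length class of -0.01. P4hb, a subunit of prolyl hydroxylase and a general disulfide isomerase, had both the most counts and the highest ratio, at 809 and 756 CPM (0.10). P3h2, which hydroxylates proline in collagen IV, was the lowest at -0.84. Serpinh1, the collagen chaperone HSP47, stood at 676 and 702 CPM (-0.05, interval -0.08 to -0.03) and was named after its value was seen. These genes have a median transcript of 3.12 kb.

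Of 9 genes for processing and cross-linking with at least 1 CPM, 8 were lower and 2 at least 2-fold lower, with a median of -0.62 and -0.23 from their length class. Pxdn, the peroxidase that cross-links collagen IV, had the most counts, at 53.4 CPM in RNA-Best against 103 CPM for RNAlater (-0.94). Pcolce2 was highest (0.08) and Loxl3 lowest (-1.09). Matrix receptors were lower for 11 of 11, with 4 at least 2-fold lower, against 67% and 4.99% of all genes. Their median was -0.73, which was -0.33 from their class. Itgb1, the beta chain shared by most collagen and laminin receptors, stood at 341 and 428 CPM (-0.32), Itga10 was highest (-0.17) and the collagen receptor Ddr2 lowest (-1.66).

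Among 11 proteases and inhibitors of matrix breakdown, 9 were lower and 1 at least 2-fold lower, with a median of -0.34, as far from their length class (-0.35). Timp3, an inhibitor that stays bound to the matrix, had both the most counts and the lowest ratio, at 179 CPM in RNA-Best against 428 CPM for RNAlater (-1.26, interval -1.29 to -1.22), and Mmp8, a collagenase of neutrophils, the highest (0.33). Other interstitial matrix genes were lower for 17 of 17, with 8 at least 2-fold lower, against 67% and 4.99% of all genes. Their median was -0.89 (-0.37 from length class). Thbs1, thrombospondin, stood at 284 and 645 CPM (-1.18), Fbln1 was highest (-0.18) and Fn1, fibronectin, lowest (-1.74). Other basement membrane genes were lower for 12 of 12, with 3 at least 2-fold lower and a median of -0.66 (-0.27 from length class). Sdc2 had both the most counts and the highest ratio, at 139 and 142 CPM (-0.04), and Frem2 the lowest (-1.59).

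**Figure D5:**
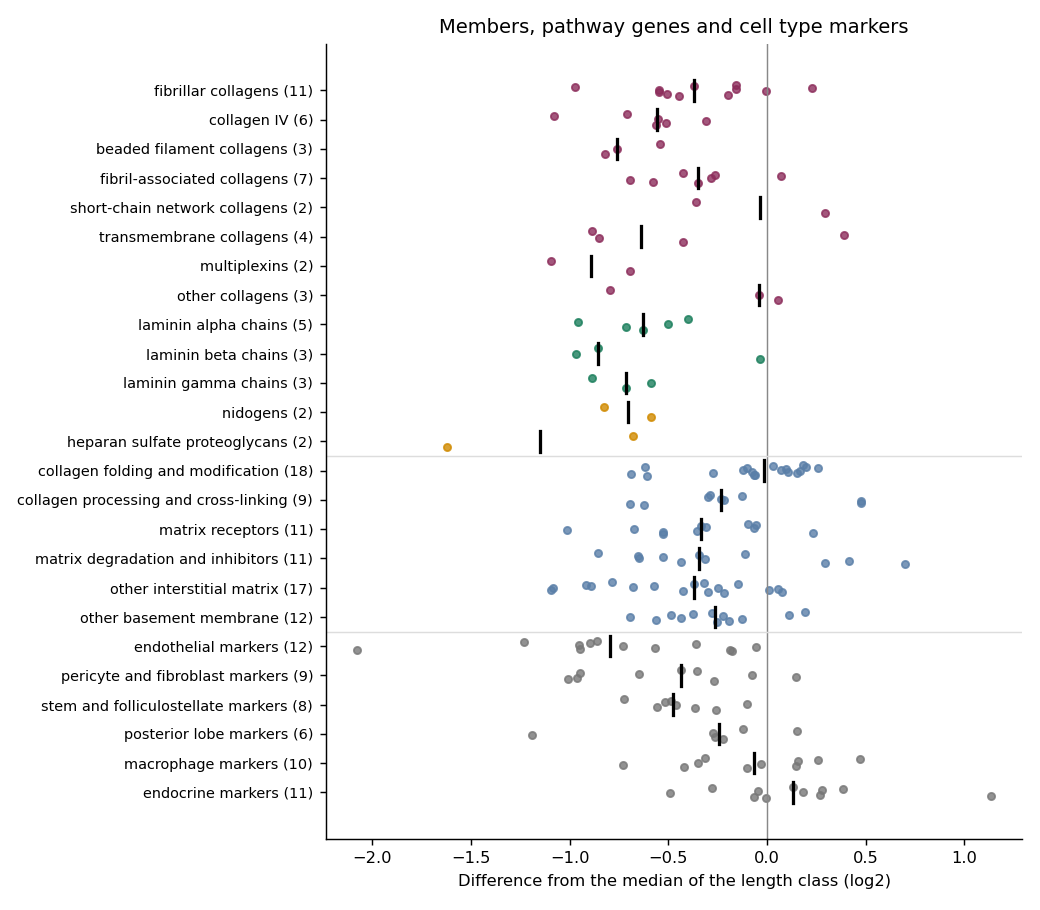
Difference of each gene's log2 ratio from the median of other protein-coding genes in its length class, for members by role, for lists of matrix-related genes and for cell type markers. Each point is a gene averaging 1 CPM or more, black bars are medians, and numbers in parentheses count the genes. Collagen folding genes centre near 0 and endocrine markers slightly above it, while most roles of the members and the endothelial markers lie to the left.

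Markers of some cell types known to make this matrix were mostly lower in RNA-Best as well. Endothelial markers were lower for 11 of 12, with 6 at least 2-fold lower, against 67% and 4.99% of all genes. Of the 12, 9 lay below the median of all genes. Their summed level was 450 CPM in RNA-Best against 864 CPM for RNAlater, with a median of -0.80 from their length class. The gene with the most counts was Plvap, at 144 and 246 CPM (-0.77), the highest Egfl7 (0.04) and the lowest Erg (-2.31). Pericyte and fibroblast markers were lower for 8 of 9, with 4 at least 2-fold lower, summed levels of 144 and 257 CPM and a median of -0.44 from their class. Rgs5, a pericyte marker, stood at 66.9 and 120 CPM (-0.84), and the list ran from Abcc9 (-1.66) to Kcnj8 (0.06). Higd1b and Tbx18 did not reach 1 CPM, and no marker was at 0.

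Stem and folliculostellate markers were lower for 8 of 8, with 1 at least 2-fold lower, against 67% and 4.99% of all genes. Their summed levels were 273 CPM in RNA-Best against 477 CPM for RNAlater, with a median of -0.47 from their class. Cdh1 had the most counts and the lowest ratio (-1.12). Posterior lobe markers were lower for 6 of 6, from Nkx2-1 (-1.28) to Vcam1 (-0.25), with the most counts in Scn7a (-0.77), summed levels of 141 and 210 CPM and a median of -0.24 from their class. Macrophage markers summed to 262 and 264 CPM with 6 of 10 lower, from Cx3cr1 (-0.82) to C1qa (0.56), with the most counts in Cd14 (-0.22) and a median of -0.06 from their class. Of 11 endocrine markers 8 were higher and 3 lower, from Ghrhr (-0.58) to Tshb (0.73), with the most counts in Prl (0.45). Their median transcript was short, at 1.6 kb, and other genes of 1-2 kb had a median log2 ratio of 0.09. Against their length class 6 lay above and 5 below, with a median of 0.13. The part of the marked cell types in the members' levels was not tested. In bulk RNA, fewer cells of a type and less RNA per cell cannot be told apart, and with 1 library each the stabilizer, the cells of a sample and the library preparation cannot be told apart either.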

How the data were processed

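Poly(A) RNA of 2 samples of dissociated primary mouse pituitary cells was measured, grouped by the stabilizer in the labels (RNA-Best or RNAlater, 1 library each). Libraries were made with the Illumina TruSeq mRNA kit. The authors deposited estimated counts per gene that were not normalized. Per the submitters' processing notes, the tools were STAR 2.5.1b and featureCounts 1.5.0-p1 with the build mm10. Of the values above 0, 35.4% (RNA-Best) and 34.9% (RNAlater) were not whole. The counting option that gave these values is not stated. The strand setting is not given in the sources used here, so reads of a member and of a gene overlapping it on the other strand cannot be told apart.

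Identifiers were matched to GENCODE M21 (GRCm38) without version suffix, 46574 of 47069 (98.9%). Each gene took the length and GC of its longest transcript. Counts were scaled to CPM by column totals, and log2 ratios used a pseudocount of 0.5 CPM, which understates the change of low genes. Length classes ended at 1, 2, 3, 4, 6 and 10 kb, and medians were taken over 13752 protein-coding genes that are not members. GC quintiles were taken over the same genes. Estimated counts were rounded for exact conditional binomial intervals and before scaling with TMM (edgeR 4.0.16) or size factors (DESeq2 1.42.0), both run under R 4.3.3. With 1 library per group, the linear model the study used on other samples could not be fitted, and no p-value is given. LOWESS (span 0.2) came from statsmodels 0.14.6. Other computations used pandas 2.3.3, scipy 1.17.1 and numpy 2.4.6 under Python 3.11.15, and were tested on simulated data. Depth was 53915047 counts in RNA-Best and 44917492 in RNAlater, so 1 count is 0.0185 and 0.0223 CPM.

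Members and gene lists were chosen with earlier results of these data known. Genes were named by a fixed rule: members averaging 10 CPM or more, the 3 highest and 3 lowest ratios between 1 and 10 CPM, members under 1 CPM, the most abundant gene and the ends of each list, partner chains, and the 3 highest ratios of other genes over 10 kb. The other members, the 3 lowest of the other genes over 10 kb, Serpinh1, Higd1b and Tbx18, and the comparison of Col3a1 with Col1a2, were added after their values were seen. A member and a marker that the rule names are not reported here by name, but are kept in counts and sums. Alternatives changed the scaling, pseudocount, filter, count type and transcript length.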

Additional observations from a re-analysis of the deposited data

How the results depend on the processing

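No paired analysis was possible because each stabilizer had 1 library. The number of members at least 2-fold lower ranged from 21 to 33 over the 8 alternatives of scaling, pseudocount, filter and count type. Not all of these kept 53 members. It was 23 of 33 at a mean of at least 10 CPM (5.40% of all genes). With whole counts only it was 25 of 44 (5.52%), and with any count 31 of 59 (2.91%). Of 53 members it was 25 with totals that leave out the 2 top genes (3.47%). With pseudocounts of 0.1 and 1 CPM it was 33 (5.90%) and 29 (4.07%) of 53. The share of all genes at least 2-fold lower moved from 4.99% to 2.65% under TMM and 2.56% under DESeq2 size factors. The members' median log2 ratio moved to -0.93 under TMM and -0.92 under DESeq2 size factors, as the scaling moved all genes. The summed level moved to -0.86 under TMM, -0.85 under DESeq2 size factors, -0.90 with totals that leave out the 2 top genes, and -1.23 without Col1a2, an alternative chosen after the data were seen. The median difference from the length class stayed between -0.63 and -0.51. That from the length and GC class moved to -0.53 with the median transcript length, and the cause was not tested. Under TMM, DESeq2 size factors and totals that leave out the 2 top genes, the log2 ratio changed sign for Col17a1 (0.14, 0.15 and 0.10) and Col8a2 (0.047, 0.058 and 0.0061), and under DESeq2 size factors for Col1a2 (0.0095). Levels of partner chains per kb depend on the transcript assumed: with median lengths all 14 ratios planned moved. At 53915047 and 44917492 counts, members under 1 CPM could not be compared.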
